A study of Mus musculus with 4 samples.

Results

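The classical and nonclassical MHC class I genes, their light chain and the genes that carry peptides to them were examined in RAW264.7 cells, a macrophage line made from a BALB/c mouse with Abelson leukemia virus. The members were chosen by gene symbol and are H2-K1, H2-D1, H2-T23, H2-T24, H2-M3, B2m, Tap1, Tap2, Tapbp and Nlrc5. Of these 10 genes, 9 are among the 18194 with a probe set of their own symbol alone. A probe set is a group of short probes read together as 1 signal, and it can be listed for more than 1 gene. The members had 30 of the 45101 probe sets, of which 25 carried 1 symbol and 5 were shared with another gene. H2-T23 was the only member without a probe set of its own, so its values came from probe sets shared with H2-T-ps and are given apart from those of the other 9 genes.

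Cells of this 1 line were grown for 4 days under 4 conditions, and RNA of each was hybridized to 1 Affymetrix array. NC macrophages were kept without IL6 in normoxia, at an oxygen level not given in the sources used here. NC+IL6 macrophages were kept in normoxia with IL6, a cytokine that signals through STAT3, at 25 ng/ml. HC macrophages were kept in 1% oxygen without IL6, and HC+IL6 macrophages in 1% oxygen with IL6 at 25 ng/ml. There were no replicates, so no test was made, and a ratio compares 2 arrays.

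The values were log2 signals as the authors deposited them, made with MAS5, a summary of all probes in a set after local background is taken away, and scaled to a trimmed mean signal of 500 on each array. Genes restricted to other tissues, with 86 probe sets, gave the background floor of an array, set at their 95th percentile, which lay between 6.02 and 6.12. The share of probe sets above the floor was 43.5% for NC, 43.7% for NC+IL6, 48.1% for HC and 47.2% for HC+IL6. A gene was called higher or lower where the brighter array exceeded its floor and the fold between both arrays, with a dimmer signal raised to its own floor, was 2 or more. All 10 macrophage markers tested, among them Adgre1, Csf1r and Cd68, were above the floor on every array. No B or NK cell marker rose above it on any array, and of T cell markers Cd28 alone did, in NC and HC, with Cd3e, Cd8a and Cd4 under it. Xcr1, S100a8, Col1a2, Epcam and Kdr exceeded it on at least 1 array, and the other markers of dendritic cells, neutrophils, fibroblasts, epithelium and endothelium did not. As a yardstick in place of replicates, the pooled SD of a log2 ratio between probe sets of the same gene was 0.58 for HC against NC, 0.55 for HC+IL6 against NC+IL6, 0.50 for NC+IL6 against NC and 0.57 for HC+IL6 against HC. It shows how far probe sets disagree and says nothing of how cultures vary.

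MHC class I molecules show peptides from inside a cell to CD8+ T cells, and consist of a heavy chain and the light chain beta-2 microglobulin. Peptides cut by the proteasome are pumped into the endoplasmic reticulum by the transporter made of TAP1 and TAP2, and tapasin holds the empty heavy chain beside the transporter until a peptide fits. NLRC5 is a coactivator that works with RFX, CREB and NF-Y proteins at class I promoters, and interferons raise most genes of the pathway through IRF and STAT proteins. In macrophages the pathway serves both the display of the cell's own proteins and cross-presentation of proteins taken up.

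Promoters are printed here so that the motifs the members share can be seen beside the way the genes moved. RefSeq (GRCm38.p6, from C57BL/6J, whose class I alleles differ from those of BALB/c) gave promoters for 7 of the 10 members, which leaves H2-T24, Tap2 and Nlrc5 without a window here. Each line runs 5′ to 3′ in the direction of the gene, and capitals mark matches, on either strand, to AANNGAAA (the core bound by IRF proteins), TGACG (the core of a cyclic AMP response element), CCAAT (bound by NF-Y) and a kappa B site written as GGGA and CC with any 4 bases between them. H2-K1 lies at chr17:34000354-34000463 on the minus strand, H2-D1 at chr17:35262918-35263050 on the plus strand, H2-M3 at chr17:37270100-37270222 on the plus strand, B2m at chr2:122147545-122147643 on the plus strand, H2-T23 at chr17:36032744-36032830 on the minus strand and Tap1 at chr17:34187329-34187479 on the plus strand.
H2-K1: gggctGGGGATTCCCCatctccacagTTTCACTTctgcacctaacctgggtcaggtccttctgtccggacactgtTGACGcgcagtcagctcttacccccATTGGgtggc
H2-D1: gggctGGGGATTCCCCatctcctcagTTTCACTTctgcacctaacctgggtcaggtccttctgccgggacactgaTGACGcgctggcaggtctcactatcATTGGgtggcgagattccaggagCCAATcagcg
H2-M3: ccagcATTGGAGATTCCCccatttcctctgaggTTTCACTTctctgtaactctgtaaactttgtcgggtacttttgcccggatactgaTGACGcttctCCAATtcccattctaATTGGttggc
B2m: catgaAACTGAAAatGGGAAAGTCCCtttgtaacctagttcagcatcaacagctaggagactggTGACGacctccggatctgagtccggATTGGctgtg
H2-T23: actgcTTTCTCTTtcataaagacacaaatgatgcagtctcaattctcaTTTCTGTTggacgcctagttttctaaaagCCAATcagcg
Tap1: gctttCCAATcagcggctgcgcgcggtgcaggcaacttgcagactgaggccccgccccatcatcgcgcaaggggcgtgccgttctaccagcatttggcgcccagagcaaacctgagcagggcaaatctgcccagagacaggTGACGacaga

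H2-K1, H2-D1, H2-M3 and B2m held all 4 motifs within 250 bases upstream of the start, with the kappa B match at the distal end in H2-K1, H2-D1 and H2-M3 and TGACG followed by ATTGG nearer the start. The windows of H2-K1 and H2-D1 had the same base at 99 of 110 positions laid side by side. In H2-M3 the distal CCAAT match and the kappa B match overlap, and in H2-K1, H2-D1 and B2m the kappa B letters match on both strands in overlapping places. H2-T23 held the IRF core at 2 places and neither TGACG nor the kappa B letters, and Tap1 held CCAAT and TGACG without the IRF core or the kappa B letters. Tapbp, not printed here, held CCAAT alone at 2 places. Over 27025 mouse promoters the IRF core was present in 21.6%, TGACG in 17.9%, CCAAT in 34.5% and the kappa B letters in 17.3%, against 5, 5, 7 and 4 of the 7 member promoters. A longer IRF element, GAAA repeated after any 2 bases, which overlaps the core, was present in H2-T23 and B2m and in 3.04% of promoters. TTCNNNGAA, which STAT proteins bind, and ACGTG, the core bound by hypoxia-inducible factors, were present in H2-M3 among the 7 members and in 7.18% and 16.6% of promoters. These motifs were picked after the member promoters had been read, and a match is a description of letters and not a bound site.

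The heavy chains that present most peptides stayed near 1 level across the 4 arrays. H2-K1, a classical heavy chain, had log2 signals of 12.52 for NC, 12.76 for NC+IL6, 12.41 for HC and 12.73 for HC+IL6. H2-D1, the other classical chain with its own symbol, had 12.68, 13.02, 12.60 and 12.87 in the same order. Both were higher on the arrays with IL6 than on those without, by a log2 ratio of 0.24 to 0.34. The distances between all 4 arrays, 0.35 for H2-K1 and 0.42 for H2-D1, were under the SD between probe sets pooled over all genes. Between their own probe sets the SD of a ratio was 0.11 to 0.19 for H2-K1 and 0.22 to 0.45 for H2-D1. For hypoxia the log2 ratios of H2-K1 were -0.11 without IL6 and -0.03 with it, and those of H2-D1 were -0.07 and -0.15. Under other scalings of the arrays, the ratio of H2-D1 without IL6 and that of H2-K1 with IL6 crossed 0, each reaching 0.03, and the other pair stayed below 0.

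Most further probe sets of both genes gave the same picture. All 4 probe sets of H2-K1 were higher with IL6 in normoxia, by 0.07 to 0.53, and in hypoxia, by 0.04 to 0.34. Of 8 probe sets of H2-D1 above the floor, 7 were higher with IL6 in normoxia and 6 in hypoxia. Among the 8, the probe set that read 9.10, 9.18, 8.96 and 8.84 had IL6 ratios of 0.08 in normoxia and -0.12 in hypoxia. The probe set of H2-D1 that stood apart most read 6.57, 6.24, 7.40 and 7.27, with IL6 ratios of -0.32 and -0.13. It was higher in hypoxia, by 0.83 and 1.02, where the other 7 lay between -0.34 and 0.00. A ninth probe set of H2-D1 was under the floor on every array. The probe set shared by H2-K1 and H2-D1 followed them, at 10.65, 11.05, 10.54 and 10.95, and the probe set shared by H2-K1 and H2-Q5 read 6.68, 7.54, 7.47 and 7.67. Since H2 genes are so alike in sequence, a probe set named for 1 of them may also take up transcripts of another.

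B2m, the light chain of every class I molecule, read 14.43 for NC, 14.65 for NC+IL6, 14.64 for HC and 14.71 for HC+IL6. The lowest and the highest array were 0.28 apart, the narrowest range of the 9 genes. Its second probe set read 13.88, 14.21, 14.08 and 14.30, and the log2 ratio for hypoxia without IL6 was 0.20 by both. The highest log2 signals of any probe set on these arrays were 15.54 to 15.71, and what saturation does to a signal as bright as that of B2m was not tested.

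H2-M3, which presents peptides that begin with formyl-methionine, as those of bacteria and mitochondria do, read 9.87 for NC, 10.59 for NC+IL6, 10.17 for HC and 10.52 for HC+IL6. NC was the lowest array, and IL6 went with a log2 ratio of 0.72 in normoxia (1.65-fold) and 0.35 in hypoxia (1.27-fold). The hypoxia ratio was 0.31 without IL6 and -0.06 with it, a difference of -0.37 that is smaller than the SD between probe sets.

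H2-T24, a nonclassical heavy chain gene of the T region whose function is little known, moved most among the members. Its log2 signals were 8.60 for NC, 10.43 for NC+IL6, 6.61 for HC and 7.67 for HC+IL6, which as signals are 388, 1381, 97.6 and 203. NC+IL6 was the highest array and HC the lowest, and both hypoxia arrays lay below both normoxia arrays. H2-T24 was 3.98-fold lower in HC than in NC and 6.79-fold lower in the HC+IL6 than in the NC+IL6 macrophages. With IL6 it was 3.56-fold higher in normoxia and 2.08-fold higher in hypoxia, and 2.08-fold is at the edge of the threshold with signals near the floor. Under 4 scalings of the arrays its hypoxia log2 ratios stayed between -2.23 and -1.99 without IL6 and between -2.93 and -2.76 with it. It has 1 probe set, so no second reading exists here. Because RNA was taken from whole cultures, fewer cells that express a gene and less of its RNA per cell cannot be told apart.

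H2-T23, which encodes the Qa-1 molecule that displays leader peptides of other class I chains to NK and T cells, is the neighbour of H2-T24 on chromosome 17. Its brighter probe set, shared with H2-T-ps, read 11.13 for NC, 12.34 for NC+IL6, 10.32 for HC and 11.06 for HC+IL6. The order of the arrays was that of H2-T24, with NC and HC+IL6 close together in the middle. Its log2 ratio was -0.81 for HC against NC and -1.28 for HC+IL6 against NC+IL6, and 1.21 and 0.74 for IL6 in normoxia and hypoxia. The dimmer probe set of the pair was under the floor on all 4 arrays. Which of both genes gave the signal cannot be told apart.

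Tap1, the TAP subunit that is paired with Tap2, followed IL6 in both oxygen conditions. Its log2 signals were 8.26 for NC, 9.86 for NC+IL6, 7.44 for HC and 9.43 for HC+IL6, so that both IL6 arrays lay above both arrays without it. Tap1 was 3.04-fold higher with IL6 in normoxia and 3.97-fold higher in hypoxia. In hypoxia it was 1.76-fold lower without IL6 and 1.35-fold lower with it, both short of 2-fold. Its 3 other probe sets were under the floor on every array. Their ratios differed in sign in every comparison but that of IL6 in normoxia, where all 3 were above 0. With them averaged in, the hypoxia ratio without IL6 turned from -0.82 to 0.81 and the IL6 ratios shrank to 0.84 and 0.13. That average lay under the floor on every array, so these ratios would not count by the rule used here.

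Tap2, the other subunit, lies on chromosome 17 beside Psmb8, which separates it from Tap1. It read 8.40 for NC, 9.09 for NC+IL6, 8.49 for HC and 9.04 for HC+IL6. Both IL6 arrays were again above both others, by a log2 ratio of 0.69 in normoxia (1.61-fold) and 0.55 in hypoxia (1.46-fold), less than 2-fold in each. Hypoxia went with 0.09 and -0.05, and under other scalings the first of these reached -0.08.

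Tapbp, which encodes tapasin, read 11.88 for NC, 12.57 for NC+IL6, 11.68 for HC and 12.17 for HC+IL6. It was 1.61-fold higher with IL6 in normoxia and 1.41-fold higher in hypoxia, and 1.15-fold and 1.32-fold lower in hypoxia without and with IL6. Its second probe set read 7.58, 8.01, 7.68 and 7.90, and so was higher with IL6 too, by 0.43 and 0.22, while its hypoxia ratios were 0.11 and -0.11.

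Nlrc5, the coactivator of the class I genes, read 7.91 for NC, 9.35 for NC+IL6, 8.06 for HC and 9.52 for HC+IL6. The IL6 arrays were above the others, 2.71-fold in normoxia and 2.77-fold in hypoxia, and the log2 ratio for hypoxia was 0.14 without IL6 and 0.17 with it. Over the 4 scalings the first of these ranged from -0.09 to 0.14, so no direction is given for hypoxia without IL6. Nlrc5 has 1 probe set.

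**Figure D1:**
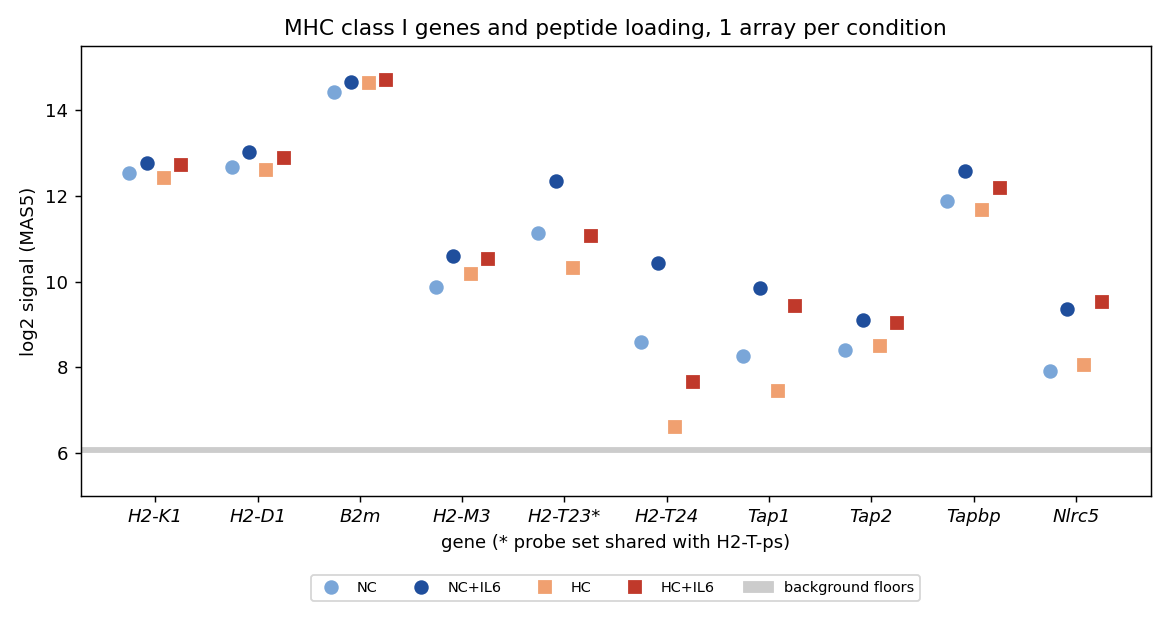
Log2 signal (MAS5) of each member on the 4 arrays, 1 point per array, with circles for normoxia, squares for hypoxia, dark colors for IL6 and a grey band for the background floors. H2-T24 spans 3.82 log2 units with both hypoxia arrays at the bottom, Tap1 and Nlrc5 split by IL6, and B2m spans 0.28.

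Hypoxia was compared with normoxia first without IL6. Of the 9 members with a probe set of their own, 1 was lower in HC than in NC (H2-T24) and 0 were higher, where 1.15% of the 10652 genes above the floor were lower and 4.10% higher. The median log2 ratio of the members was -0.07 and that of all genes 0.07, with 4 members above 0 and 5 below. Quantile normalization shifts the balance of all calls in this comparison from 437 higher and 122 lower to 279 higher and 256 lower, and equal medians of the bright probe sets move the median of all genes from 0.07 to -0.04. H2-T24 was called lower under each of these scalings, and Tap1 as well under quantile normalization, at -1.05.

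With IL6 in both cultures, 1 of 9 members was lower in the HC+IL6 than in the NC+IL6 macrophages, again H2-T24, and 0 were higher, beside 1.49% lower and 3.62% higher of 10622 genes. The median of the members was -0.06 and that of all genes 0.04, and 7 of 9 members lay below 0. Quantile normalization turns all calls of this comparison from 385 higher and 158 lower to 225 higher and 257 lower. This pair of arrays shares none with the pair of NC and HC, and the difference of the hypoxia ratios with and without IL6 was -0.77 for H2-T24, 0.39 for Tap1 and -0.37 for H2-M3, and at most 0.20 in size for the other 6. Without replicates none of these differences could be tested.

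IL6 was then compared with no IL6 in normoxia, an array pair that shares NC with the first comparison. All 9 members were above 0, from 0.22 for B2m to 1.83 for H2-T24, with a median of 0.69 where the median of all genes was -0.03. Past 2-fold were 3 higher (H2-T24, Tap1 and Nlrc5) and 0 lower, beside 3.67% higher and 1.32% lower of 10326 genes. Of the other 6, H2-M3, Tap2 and Tapbp were past 1.5-fold, and H2-K1, H2-D1 and B2m were not.

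In hypoxia, IL6 again went with a log2 ratio above 0 for all 9 members, from 0.07 for B2m to 1.99 for Tap1. The median was 0.49, and that of all genes -0.03. H2-T24, Tap1 and Nlrc5 were the 3 called higher, and 0 were lower, beside 2.67% higher and 2.06% lower of 10897 genes. All 9 ratios stayed above 0 under the 4 scalings in both IL6 comparisons. By 2 of its other probe sets, H2-D1 lay below 0 for IL6 in hypoxia, at -0.12 and -0.13. These comparisons of IL6 share no array with each other, but each shares both of its arrays with the hypoxia comparisons.

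**Figure D2:**
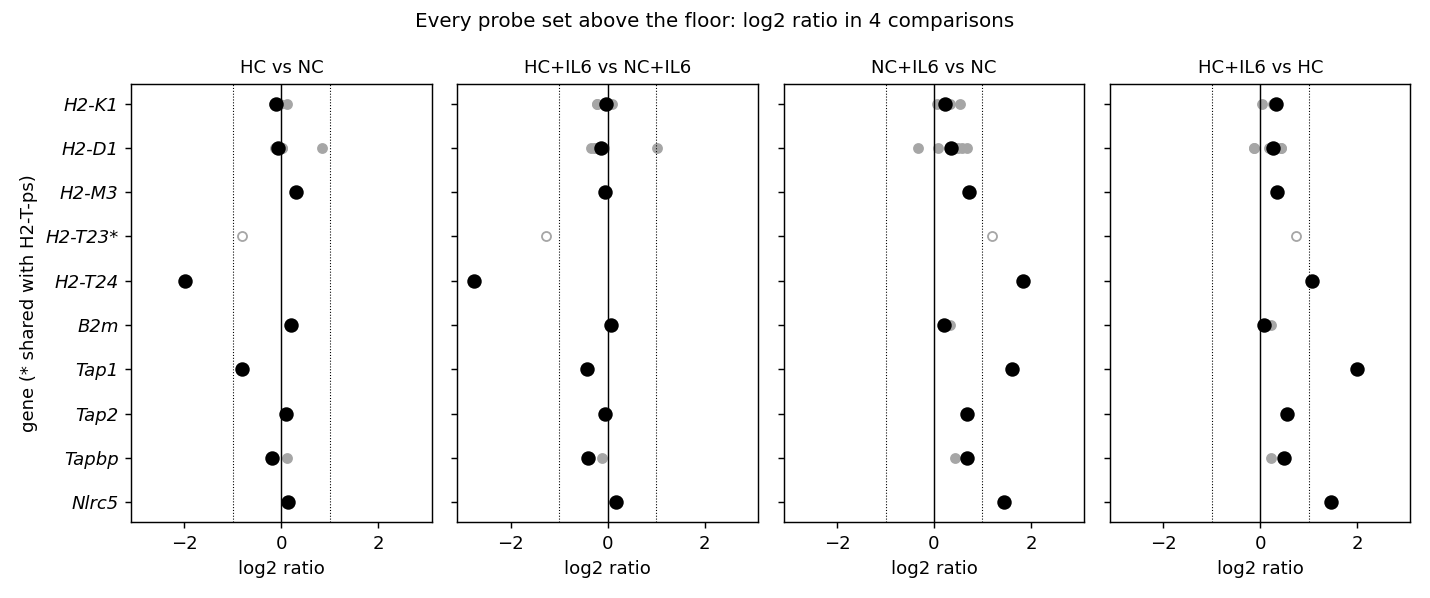
Log2 ratio in the 4 comparisons of probe sets above the floor that carry the symbol of a member alone, with dotted lines at 2-fold. The brightest probe set of each gene is in black, its other probe sets in grey and the shared H2-T23 probe set as an open circle. The other shared probe sets of the members are not drawn. In the hypoxia panels all black points but H2-T24 lie within 2-fold of 0, and in the IL6 panels all black points lie to the right of 0.

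The machinery that makes the peptides moved little past 2-fold. The list of peptide supply held immunoproteasome and proteasome subunits, activators and an assembly factor, of which 9 of 11 were above the floor. In hypoxia 8 of 9 were below 0 in each comparison, with medians of -0.52 in both. Of all genes, 4725 of 10652 were below 0 without IL6 and 4896 of 10622 with it. For IL6 9 of 9 were above 0, with medians of 0.23 in normoxia and 0.31 in hypoxia. Among all genes, 4814 of 10326 were above 0 for IL6 in normoxia and 5115 of 10897 in hypoxia. Psmb10, an immunoproteasome subunit, was 2.02-fold lower in the HC+IL6 than in the NC+IL6 macrophages and was the only gene of the list called lower, a call that is lost with quantile normalization, at -0.94, and with cyclic loess. Psmb9, an immunoproteasome subunit encoded next to Tap1, was 2.08-fold higher with IL6 in normoxia, at 11.33 against 10.28, and its log2 ratio for IL6 in hypoxia was 0.34.

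Psmb8, the immunoproteasome subunit encoded between Tap1 and Tap2, read 11.66 for NC, 12.44 for NC+IL6, 11.40 for HC and 11.92 for HC+IL6. Its order over the arrays was that of Tap1 and Tapbp. Psme1, a subunit of the proteasome activator that interferon raises, had log2 ratios of -0.52 for hypoxia in both comparisons and 0.31 for IL6 in both. The constitutive catalytic subunits Psmb5, Psmb6 and Psmb7 had hypoxia ratios of -0.50, -0.53 and -0.75 without IL6, and so lay below 0 as most of the list did.

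Of the genes that trim peptides or fold the heavy chain, 13 of 15 had a probe set of their own and all were above the floor. In HC against NC 11 of 13 lay below 0, beside 4725 of 10652 over all genes, with a median of -0.20. The median of HC+IL6 against NC+IL6, -0.02, changed sign with the scaling. For IL6 the medians were 0.03 in normoxia and 0.27 in hypoxia. Past 2-fold was 1, Tapbpl, a tapasin-like protein that edits peptides, which was 2.14-fold lower in the HC+IL6 than in the NC+IL6 macrophages, at 6.95 against 8.05. Its log2 ratio without IL6 was -0.10. Erap1, the aminopeptidase that trims peptides in the endoplasmic reticulum, had hypoxia ratios of -0.58 and -0.35, and Pdia3, a disulfide isomerase of the loading complex, -0.55 and -0.23. Calr and Canx, the chaperones of the heavy chain, lay at -0.34 and -0.37 without IL6, and at -0.01 and -0.09 with it. For IL6 these 4 genes ranged from -0.13 to 0.37.

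Among other class I and class I-like chains, 14 of 32 had a probe set of their own and between 5 and 7 were above the floor in a comparison, too few to describe as a group. H2-Q10 and Cd1d1 were under the floor on every array. Fcgrt, the neonatal Fc receptor, which binds antibody and albumin in place of peptides, was higher in hypoxia, by at least 4.42-fold without IL6 and at least 2.32-fold with it, the latter a call that is lost with quantile normalization and cyclic loess. Its log2 signals were 5.93, 4.13, 8.26 and 7.24, of which the first 2 are under the floor. It was 2.04-fold lower in HC+IL6 than in HC, a call lost under cyclic loess and with equal medians of the bright probe sets, and it was the only chain in the list with a call for hypoxia. Mr1, which presents vitamin B metabolites, was at 6.30, 6.98, 6.99 and 7.63, and Procr, the endothelial protein C receptor, was 2.08-fold higher with IL6 in normoxia.

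Probe sets shared between other H2 genes are reported by all their names. The probe set of H2-Q9 and H2-Q7 read 9.25 for NC, 10.13 for NC+IL6, 9.58 for HC and 10.33 for HC+IL6. That of H2-T9, H2-T22 and H2-T10, the last 2 known as ligands of gamma delta T cells, read 9.70, 10.32, 9.79 and 10.17. Both were higher with IL6, by log2 ratios of 0.88 and 0.75 for the former and 0.62 and 0.38 for the latter, and neither reached 2-fold. Their hypoxia ratios lay between -0.15 and 0.33. The probe set of H2-Q6 and H2-Q8 read 6.77, 7.39, 7.26 and 7.51, and its hypoxia ratios were 0.49 and 0.12. The probe set of H2-Q6, H2-Q8 and H2-Q4 read 7.48, 7.98, 8.08 and 7.56, and unlike the others it had a ratio below 0 for IL6 in hypoxia, -0.52, after 0.50 in normoxia. Its hypoxia ratios were 0.60 without IL6 and -0.42 with it.

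Of the regulators, 24 of 27 were above the floor in each comparison, and their medians were 0.24 and 0.02 for hypoxia without and with IL6, and 0.12 and 0.01 for IL6 in normoxia and hypoxia. Irf7, an interferon regulatory factor that is itself raised by interferon, was the only regulator called for hypoxia, 3.24-fold lower without IL6 and 2.21-fold lower with it. In HC+IL6 against NC+IL6, Stat2 was also called lower under quantile normalization, at -1.07, and cyclic loess, at -1.11, and Socs3 higher under quantile normalization, at 1.02. The log2 signals of Irf7 were 8.83 for NC, 10.86 for NC+IL6, 7.14 for HC and 9.72 for HC+IL6. Irf7 was 4.07-fold higher with IL6 in normoxia and 5.99-fold higher in hypoxia. The order of the arrays for Irf7 was that of Tap1 (NC+IL6, HC+IL6, NC, HC).

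Socs3, the feedback inhibitor of IL6 signaling that STAT3 raises, read 10.36, 12.59, 11.26 and 13.55, and so was 4.69-fold and 4.90-fold higher on the arrays labelled with IL6. Stat2, which joins Irf9 in the complex that answers type I interferon, was 2.64-fold higher with IL6 in normoxia, at 7.69 against 6.29, and its HC signal of 5.29 was under the floor. Irf9 read 9.83, 10.58, 8.96 and 9.68, with hypoxia ratios of -0.86 and -0.90 and IL6 ratios of 0.75 and 0.72, all short of 2-fold. Irf1, the factor that binds the IRF element of class I promoters, had ratios of 0.17 and -0.06 for hypoxia and 0.49 and 0.26 for IL6. Irf2, Irf8 and Rfx5, the last a subunit of the RFX complex through which Nlrc5 acts, had no call, and their hypoxia ratios without IL6 were 0.68, 0.47 and 0.40.

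**Figure D3:**
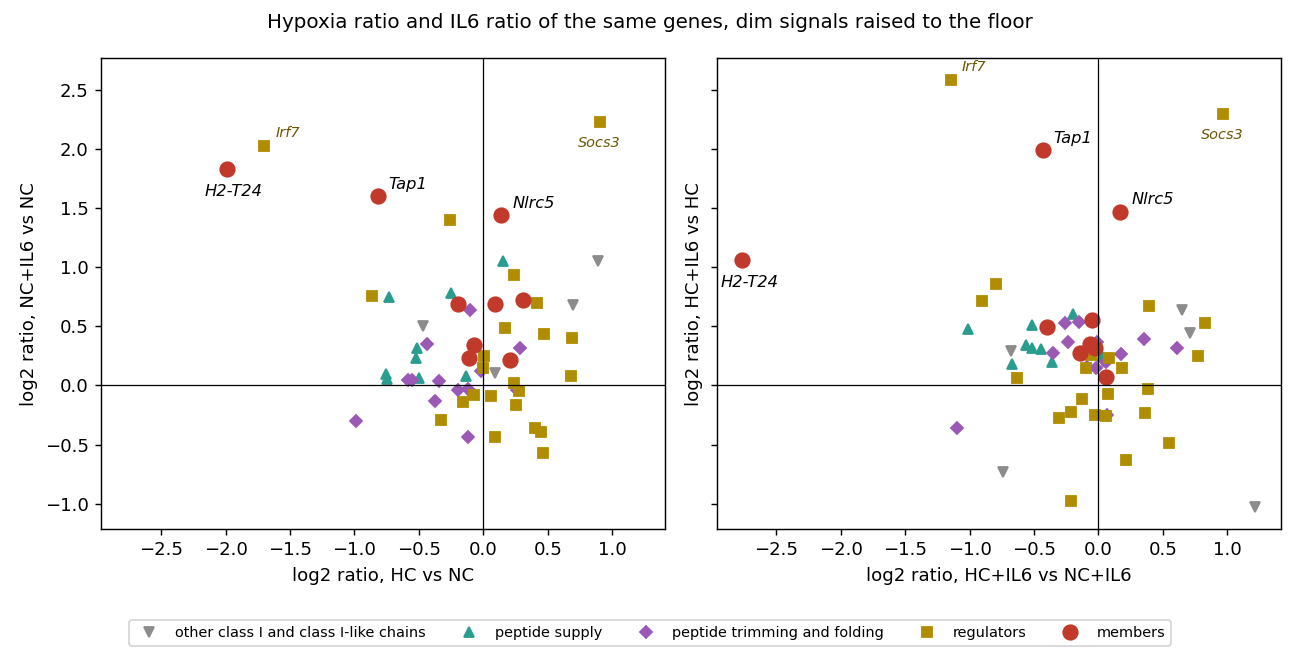
Log2 ratio for IL6 (vertical) against log2 ratio for hypoxia (horizontal), without the other agent at left and with it at right, for the 9 members (red circles) and the other lists, dim signals raised to the floor. In each panel both axes share 1 array, which ties them, and H2-T24 and Irf7 lie at upper left while Nlrc5 lies near 0 for hypoxia.

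Genes outside these lists were ranked by how close their pattern came to that of Tap1 and of H2-T24, as the root mean square distance over 4 arrays after each gene was centered on its mean and dim signals were raised to the floor. With 4 arrays and 11167 genes compared, close patterns are to be found for any gene. Nearest to Tap1 were Rusc2 (0.01), Ctsc (0.13), which encodes cathepsin C, Gm11716 (0.19), Ces5a (0.21) and Tubb2b (0.24), and among the members Nlrc5 was nearest, at 0.44. Nearest to H2-T24 were Usp18 (0.19), Chac1 (0.28), Rsad2 (0.36), Slc1a4 (0.38) and Rtp4 (0.43), and among the members Tap1 was nearest, at 0.94. The HC signals of Rusc2, Gm11716, Rsad2 and Slc1a4 were under the floor, so their distances rest in part on raised values. Before raising, Rusc2 had log2 ratios of -1.47 for HC against NC and 2.66 for HC+IL6 against HC. Tap1 had -0.82 and 1.99. Usp18, Rsad2 and Rtp4 are known as interferon-induced genes, and Chac1 and Slc1a4 as genes of amino acid stress.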

How the data were processed

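The authors deposited log2 signals of 45101 probe sets on 4 arrays, summarized with MAS5, of a version not given in the sources used here, and scaled. The methods name a smaller array design than this number of probe sets fits. With 2% trimmed at either end, every deposited array had a mean signal of 500. Of the probe sets, 34958 had 1 symbol, 932 several and 9211 none listed, and 34750 matched RefSeq genes of GRCm38.p6. A gene took the brightest of its probe sets with 1 symbol, by mean log2 signal. Quantile and cyclic loess scaling came from limma 3.58.1 in R 4.3.3. Scaling to equal medians, ratios and plots came from pandas 2.3.3, numpy 2.4.6 and matplotlib 3.10.9 in Python 3.11.15. Calculations were tested on simulated arrays.

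Named genes are all 10 members with every probe set, genes of the other lists called in any comparison, a fixed set of further genes of those lists whatever their values, and the 5 genes nearest to Tap1 and to H2-T24. Thop1, Psmb5, Psmb6 and Psmb7 were named after their values were seen. The members and lists were chosen with earlier results of these data known. Some listed genes were not analysed here. Alternatives were 3 scalings, other floors, a background median added to each signal, the mean over probe sets, no x, s or a probe sets, and 1.5-fold. A doubled floor and H2-T23 counted through its shared probe set were added after the data had been seen. Comparisons had no test, so the number of arrays limits the precision.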

Additional observations from a re-analysis of the deposited data

How the results depend on the processing

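The count of members past 2-fold changed in few settings. For HC against NC, 2 members were lower with quantile normalization and 2 at 1.5-fold, H2-T24 and Tap1 each time, in place of 1. For HC+IL6 against NC+IL6, 2 were lower once H2-T23 was counted through its shared probe set, a setting chosen after seeing the data. For NC+IL6 against NC, 6 were higher at 1.5-fold in place of 3. No other count left 1.5 times its value, and no member median moved by more than the SD between probe sets. The median for HC against NC lay between -0.18 and 0.02 and was above 0 with the mean over probe sets. That mean put Tap1 under the floor, because its dim probe sets were averaged in, so the median there is over 8 members. Leaving out the x, s and a probe sets leaves no value for H2-K1, B2m and Tap2. In that setting the IL6 ratio of H2-D1 was 0.08 in normoxia and changed sign in hypoxia, to -0.12. B2m changed sign for HC+IL6 against NC+IL6 between scalings (-0.08 to 0.16). H2-T24 was under 2-fold for HC+IL6 against HC when the background median was added (0.94), and was not called with the floor doubled. The cause of these changes was not tested beyond what the settings themselves alter. Under quantile normalization all calls for HC against NC went from 122 to 256 lower and from 437 to 279 higher, and for HC+IL6 against NC+IL6 from 158 to 257 lower and from 385 to 225 higher. No paired analysis was possible because each condition has 1 array and no replicate number.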

Other observations

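The share of genes past 2-fold depended on brightness, which differs between the members. For HC against NC it was 8.91% of 2670 genes with a mean log2 signal from 7 to 9, the stratum of H2-T24, Tap1, Tap2 and Nlrc5. It was 4.33% from 9 to 11, where H2-M3 lies, 2.71% from 11 to 13, where H2-K1, H2-D1 and Tapbp lie, and 1.25% of 559 genes above 13, with B2m. For NC+IL6 against NC the shares were 8.23%, 4.03%, 2.71% and 1.61%. The 3 members past 2-fold for IL6 thus come from the dimmest of these strata, and how far their brightness bears on the calls was not tested.

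The probe set shared by H2-D1, H2-Q2 and Gm38417 was above the floor on 1 array only, NC+IL6, at 6.80, with 4.07 in NC, 5.95 in HC and 5.99 in HC+IL6. Thop1, a peptidase of the cytosol that can destroy class I peptides, was just short of the threshold in HC against NC, at -0.98, and was called lower there under the 3 other scalings. With IL6 its log2 ratio was -0.15.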
